A study of Homo sapiens with 4 samples.

Results

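Stretches of the genome that a peak list gives to genes of both strands at once are the subject here. The peaks come from m6A-seq of the human myeloma cell line RPMI-8226. The method pulls down polyadenylated RNA that carries N6-methyladenosine (m6A) with an antibody and sequences it next to RNA kept aside, called the input. The cells had received lentivirus with a short hairpin RNA, either one against ALKBH5, an RNA demethylase (shALKBH5), or the one labelled shNC, so every group carried a lentiviral hairpin. Each of these 2 conditions had 1 input and 1 immunoprecipitated (IP) library, 4 libraries in all, and 1 peak list on the hg38 build. With no replicates, no test between conditions was made, and a difference between the lists is a difference between 2 pairs of libraries. Library depth is unknown, since peaks come without read numbers. Of 9 plasma cell markers, 6 had a peak in each list (CD38, IRF4, MZB1, PRDM1, SDC1 and XBP1), against 0 and 1 of 5 T cell markers and 1 of 5 myeloid markers. A gene without a peak may still be expressed, so these counts say where peaks were listed and no more.

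Peaks were selected on their listed blocks and strand: a peak was kept when its blocks, which follow splicing, shared at least 1 base with blocks of a peak of the opposite strand in the same list. The rule kept 2178 of 22448 peaks in the shNC list, 9.70% (95% exact interval 9.32 to 10.1), and 2429 of 24626 in the shALKBH5 list, 9.86% (9.49 to 10.2). That makes 4607 of the 47074 peaks of the series. All intervals here are exact binomial ones, and they cover counting error over peaks only. The kept peaks form 1160 opposite-strand pairs for shNC and 1290 for shALKBH5. Because positions and strands chose the pairs, their number and their overlap are descriptions, and so are the folds and p-values, which come from the same IP and input comparison.

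m6A is placed on nascent RNA by a methyltransferase complex built around METTL3, METTL14 and WTAP, mostly at adenosines in short sequences of which GGACT is the best known, and it gathers around stop codons and in 3' untranslated regions. ALKBH5 and FTO can remove it. Human genes often overlap a neighbour on the other strand: the ends of convergent genes run into each other (tail to tail), divergent genes share a start region (head to head), and antisense RNAs lie within or across another gene. A library that does not record the strand of its RNA cannot say from which gene of such an overlap a read came. The sources used here do not say whether the 4 libraries kept strand, and for every pair described below the 2 genes cannot be told apart as the source of the enrichment.

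The letters at a few of these places are shown first, because the pairs set 2 strands side by side and m6A contexts are read on 1. No genome was used here, so the search was limited to the RefSeq promoter windows of GRCh38.p14, which run from 250 bases before a gene's start to 50 bases after it. The motif searched was GGACT (both strands of the window). An alternative, GGACN, where N is any base, holds every GGACT. Of 35116 windows, 25.3% held GGACT on the gene's own strand, 44.2% held it on either strand and 6.46% on both. In the shared bases of the pairs, a site was counted only with 12 further bases of the window on each side, and 1 chromosome was left out. Within these limits, 31 shNC pairs and 34 shALKBH5 pairs had at least 1 counted GGACT, with 40 and 42 sites. Both strands had a counted site in 5 of those shNC pairs and 3 of those shALKBH5 pairs. All these counts can be too low because of those limits. How many pairs had shared bases in a window was not counted, so they give no share to set beside other pairs or peaks. The 3 pairs that had both in each list are printed here with TSC2/NTHL1, whose counted sites both lie on the plus strand. All 4 were chosen after their values were seen. Each site is given 5' to 3' on the strand of the gene named, with the motif in capitals. The window can be that of the other gene of the pair: the TSC2 sites lie in the NTHL1 window and the CCDC18 site in the TMED5 window. Likewise, the NDUFA1 site lies in the RNF113A window, the RNF113A site in the NDUFA1 window and the ZBTB11-AS1 site in the ZBTB11 window. Most of a window lies before the gene's start, so a site need not be in the RNA of the gene named.
CCDC18, plus strand, chr1:93180411-93180439: tccaaagggtagGGACTctgggcggggct
TMED5, minus strand, chr1:93180431-93180459: ggttgcggaataGGACTgctagccccgcc
TMED5, minus strand, chr1:93180567-93180595: ggagcccgcccgGGACTacatttcccaca
NDUFA1, plus strand, chrX:119871717-119871745: actgacggaagaGGACTgcgagagcccga
RNF113A, minus strand, chrX:119871607-119871635: tttcggagctcaGGACTctaaaatggcag
ZBTB11-AS1, plus strand, chr3:101677168-101677196: aggcaagggcggGGACTgagccctgattg
ZBTB11, minus strand, chr3:101677309-101677337: gagaaactgccaGGACTtaagatgtctgc
TSC2, plus strand, chr16:2047815-2047843: ggcggtcatgccGGACTcctgcggactac
TSC2, plus strand, chr16:2047825-2047853: ccggactcctgcGGACTacacatcccggc

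CCDC18, a coiled-coil protein gene, and TMED5, which encodes a cargo receptor between the endoplasmic reticulum and the Golgi, lie head to head, and all 360 bases of the TMED5 peak were also listed for CCDC18 in both lists. Their folds in the authors' deposited table were 17.7 for CCDC18 and 17.6 for TMED5 in the shNC list, and 19.1 and 16.7 in the shALKBH5 list. NDUFA1, a subunit of respiratory complex I, shared 282 bases with RNF113A, a spliceosome-associated RING finger protein, at folds of 5.15 and 5.50 in the authors' deposited shNC table and 6.50 and 5.61 in the shALKBH5 one. ZBTB11, a zinc finger transcription factor, and its antisense RNA shared 838 bases in 1 stretch in the shNC list and 270 and 479 bases in 2 stretches in the shALKBH5 list. ZBTB11 had 9.51 and ZBTB11-AS1 12.7 in the authors' deposited shNC table, and in the shALKBH5 one they had 4.59 and 3.93 in the shorter stretch and 11.4 and 11.2 in the longer. TSC2, the GTPase-activating partner of TSC1 that restrains mTORC1, had a fold of 9.37 beside 3.84 for NTHL1, a DNA glycosylase, in the authors' deposited shNC table, and 7.62 beside 6.70 in the shALKBH5 one, so these 2 genes were far apart in the shNC list alone.

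Whole promoter windows under peaks were then compared with all windows. A window counted as covered when at least 100 of its bases lay under a peak. GGACT stood on the gene's own strand in 25.9% (18.8 to 34.0) of the 139 windows under overlapping shNC peaks and in 26.1% (19.9 to 33.0) of the 188 under overlapping shALKBH5 peaks, intervals that hold the 25.3% of all windows. The own strand carried it in 30.8% of the 676 windows under any shNC peak and 28.5% of the 985 under any shALKBH5 peak. The other strand carried it in 33.1% (25.4 to 41.6) and 34.6% (27.8 to 41.8) of the windows under overlapping peaks, beside 25.3% of all windows and 28.3% and 28.8% of those under any peak. The first interval starts next to the share of all windows and the second lies above it. Both intervals hold the share of windows under any peak of their list. Either strand carried it in 51.1% (42.5 to 59.6) and 51.6% (44.2 to 58.9), beside 44.2% of all windows and 53.0% and 51.2% of those under any peak. Both strands carried it in 7.91% (4.02 to 13.7) and 9.04% (5.36 to 14.1) of the windows under overlapping peaks. In windows under the shared bases themselves that share was 13.0% (6.14 to 23.3) of 69 and 15.2% (8.10 to 25) of 79. The 6.46% of all windows lies within the first interval and not within the second. Under any peak the share was 6.07% (shNC) and 6.19% (shALKBH5). Windows of neighbouring genes can share bases and were counted separately, so the intervals over windows can be too narrow. A match is a description of letters, and the lack of one says only that the letters are not in that window.

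The overlaps were mostly near complete on the shorter side. The median pair shared 191.5 bases in the shNC list and 184 in that of shALKBH5, which was 96.0% and 95.6% of the shorter peak. Measured against all bases that either peak covers, called the union, the median share was 64.1% and 62.0%. In total 272 kb in the shNC list and 293 kb in the shALKBH5 list were listed for both strands, 3.63% and 3.71% of all covered bases and 52.9% and 52.2% of the bases of the overlapping peaks. The most shared bases of any pair, 1727 in the list of shNC and 1708 in that of shALKBH5, belonged to FEM1A, an ankyrin repeat protein of a ubiquitin ligase, and the unnamed locus AC005523.2. At the other end, 1 pair per list rested on a single base, KLC3/ERCC2 (folds 3.23 and 3.87 in the authors' deposited shNC table) and 1 pair of ZACN with EXOC7 (1.61 and 8.20 in the authors' deposited shALKBH5 table). Just outside the rule, 6 shNC and 2 shALKBH5 pairs of opposite-strand neighbours lay under 10 bases apart without sharing any. Of these, the mitochondrial ND5 and ND6 peaks (MT-ND5/MT-ND6, folds 2.19 and 3.42 in the authors' deposited shNC table) and the ARHGEF38/INTS12 peaks (1.91 and 1.59 in the authors' deposited shALKBH5 table) had 0 bases between them.

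Most overlapping peaks belonged to 1 pair, 2045 of 2178 in the shNC list and 2288 of 2429 in the shALKBH5 list. No pair lay within a single gene. Linked through shared bases, the peaks made 1020 groups for shNC and 1140 for shALKBH5. A single pair made up 899 and 1009 of the groups, and another 107 and 117 held 3 peaks. Groups of 4 numbered 12 and 11, and groups of 5 or more numbered 2 and 3. The group of 6 peaks was the same pair of genes in both lists, ZACN, a zinc-activated channel, and EXOC7, a subunit of the exocyst that tethers secretory vesicles, on chromosome 17. Its longest pair shared 834 bases, with folds of 8.73 and 8.68 in the authors' deposited shNC table and 8.25 and 8.31 in the shALKBH5 one. EXOC7 also had a spliced peak there, and AC022167.2 with CARHSP1, a cold shock domain protein, made a group of 5 in both lists. ALG1, a mannosyltransferase of N-glycan synthesis, and EEF2KMT, which methylates elongation factor 2, made the other group of 5, in the shALKBH5 list, through 4 pairs that shared 69 to 478 bases.

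The overlapping peaks differed from the rest in the genes they were named for. Protein-coding genes held 64.2% (62.2 to 66.2) of overlapping shNC peaks and 64.1% (62.2 to 66.0) of overlapping shALKBH5 peaks, beside 86.0% of the other peaks in each list. Unnamed loci, which carry clone-based names such as AC087164.1, held 24.0% (22.2 to 25.8) and 24.4% (22.7 to 26.2), beside 6.81% and 6.93% of the others. Named noncoding RNAs made up 8.03% and 8.19%, beside 3.86% and 4.0%. Pairs of a protein-coding gene with a gene of another class were the commonest kind, 651 of 1160 (56.1%) in the shNC list and 756 of 1290 (58.6%) in the shALKBH5 list. Both genes were protein-coding in 412 and 443 pairs, and neither was in 97 and 91. Within the mixed pairs, the protein-coding member had the higher fold in 46.7% (42.8 to 50.6) of the shNC pairs and 46.4% (42.8 to 50.1) of the shALKBH5 pairs, counts of 304 and 351, while 53 and 61 pairs had equal folds. The log10 p was the stronger one for the protein-coding member in 54.2% (50.3 to 58.1) and 55.2% (51.5 to 58.7). Its peak was the longer one at the median, 328 against 269 bases and 300 against 269 bases.

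In all, 1724 of 11318 shNC genes with a peak (15.2%) and 1943 of 12088 shALKBH5 genes with a peak (16.1%) had an overlapping one. For 51.7% (49.4 to 54.1) and 49.8% (47.6 to 52.1) of these genes, every peak the list gave them overlapped a peak of the other strand. The median log10 p of the overlapping peaks in the authors' deposited tables was stronger than that of the other peaks, -18.9 beside -15.6 in the shNC list and -17.1 beside -15.1 in the shALKBH5 list. Folds and lengths were close to the rest: the median fold in the authors' deposited tables was 6.43 beside 6.54 for the other peaks in the shNC list and 6.53 beside 6.64 in the shALKBH5 list. Median lengths were 271 bases in both lists, beside 270 and 269 bases. Peaks of more than 1 block were more frequent, 22.5% (20.8 to 24.4) beside 16.9% and 22.8% (21.2 to 24.6) beside 17.3%. Overlapping peaks ranged in fold from 1.21 to 174 in the authors' deposited shNC table and from 1.17 to 176 in the shALKBH5 one.

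Chromosome 16 stood out. Of its peaks, 238 of 1337 in the shNC list overlapped one of the other strand, 17.8% (15.8 to 20), and 284 of 1471 in the shALKBH5 list did, 19.3% (17.3 to 21.4). Chromosome 20 had the lowest share in both lists, 4.47% (2.88 to 6.58) and 4.70% (3.14 to 6.72), of 537 and 596 peaks. By value, chromosomes 17, 15, 12, 14 and 22 also lay above the share of the whole list in both lists. Besides chromosome 20, chromosomes 4, X, 5, 3, 7 and 9 lay below it in both with intervals that leave it out, and of the higher ones the intervals of 14, 15, 16 and 17 left it out in both.

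**Figure D1:**
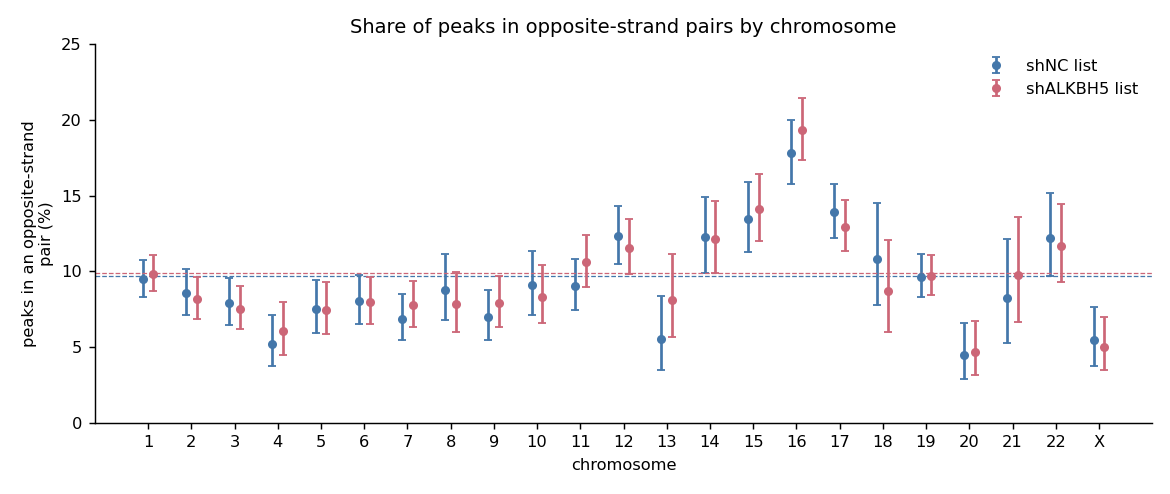
Share of the peaks of each chromosome that overlap an opposite-strand peak of the same list, in percent, with 95% exact intervals over peaks; dashed lines are the shares of the whole lists (9.70% and 9.86%). Chromosome 16 is highest in both lists (17.8% and 19.3%) and chromosome 20 lowest (4.47% and 4.70%).

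Where 2 genes could both be placed on RefSeq at the peak, convergent layouts led. Placement needed the RefSeq span of each gene to reach its peak, which held for 431 of 1160 shNC and 501 of 1290 shALKBH5 pairs. The layout of the other pairs was not determined, and pairs with a peak wholly before a RefSeq start are among them. Placement could differ between the lists: MASTL/YME1L1 was head to head in the shALKBH5 list and not placed in the shNC list. Of the placed pairs, 71.2% (66.7 to 75.5) and 65.7% (61.3 to 69.8) were tail to tail. Another 12.3% (9.35 to 15.8) and 17.4% (14.1 to 21.0) were head to head, and 16.5% and 17.0% had one gene inside the other. Among pairs of 2 protein-coding genes the tail-to-tail share was 78.4% (73.3 to 83.0) of 292 and 74.0% (68.9 to 78.7) of 327. The tail-to-tail pairs shared more bases, with medians of 218 and 211, than the head-to-head pairs, with 151 and 139. They also had the stronger peaks, with a median log10 p of -26.2 and -23.6 in the authors' deposited tables beside -10.3 and -10.7. If each peak was instead given to the nearer end of its gene within 1000 bases, 59.2% of 147 shNC pairs and 53.5% of 185 shALKBH5 pairs had both peaks at a gene end.

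The position of the single peaks showed the same lean towards gene ends. Start peaks were those beginning upstream of the RefSeq start or under 500 bases past it, and end peaks those of the rest that finished under 1000 bases from the RefSeq end. Of the placed overlapping peaks, 522 of 1456 lay at the end in the shNC list, 35.9% (33.4 to 38.4), beside 23.0% of all placed shNC peaks. In the shALKBH5 list it was 552 of 1634, 33.8% (31.5 to 36.1), beside 22.0% of all placed peaks there. Gene starts also took more of the overlapping peaks, 16.1% (14.3 to 18.1) beside 11.4% of all placed shNC peaks and 20.2% (18.3 to 22.2) beside 14.5% of all placed shALKBH5 peaks. The interior of genes took correspondingly fewer, 48.0% and 46.0% beside 65.6% and 63.5%. The rule itself favours places where annotated genes overlap, so these shares describe the selection.

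**Figure D2:**
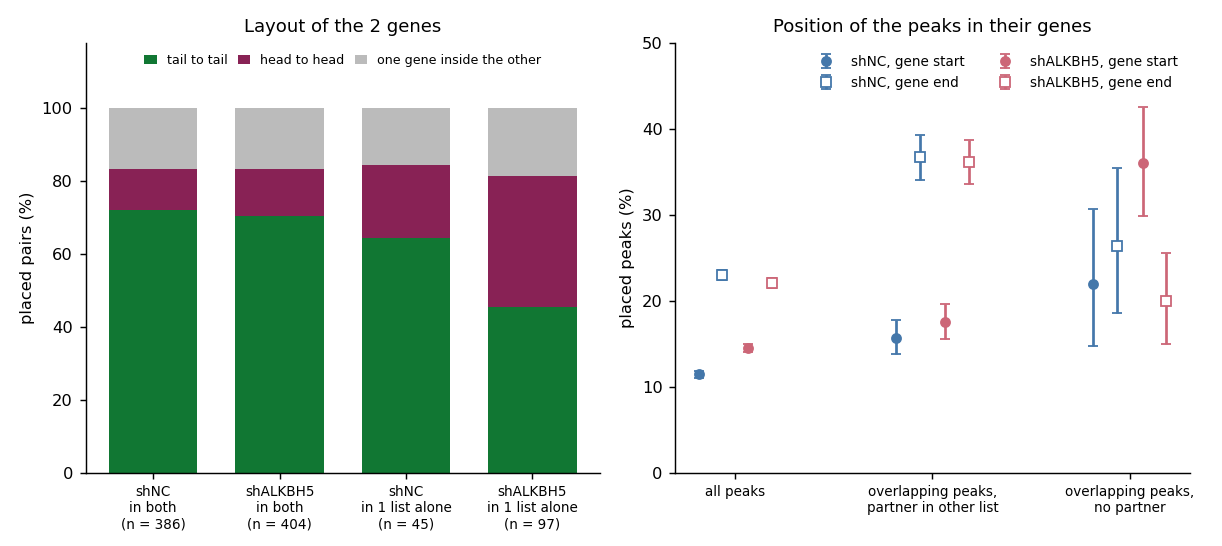
Left, layout of the 2 genes for placed pairs whose gene pair stands in both lists or in 1 list alone, in percent of placed pairs. Right, percent of placed peaks at the gene start (filled circles) and gene end (open squares) with 95% exact intervals. Overlapping peaks without a partner in the other list lie at starts in 21.9% (shNC) and 36.0% (shALKBH5).

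Of the 10 strongest pairs of both lists, ranked by the weakest log10 p of their 4 peaks, 7 lay tail to tail. SNX22/PPIB came first. PPIB, cyclophilin B of the endoplasmic reticulum, ends against SNX22, a sorting nexin, and the peaks chr15:64155812-64156140 (PPIB, minus strand, gene end) and chr15:64155808-64156166 (SNX22, plus strand, inside the gene) shared 329 bases in both lists. In the authors' deposited shNC table the folds were 3.89 for SNX22 and 3.90 for PPIB, with log10 p of -3120 and -3110. In the shALKBH5 one they were 3.06 and 3.02, with log10 p of -1810 and -1830. Each list thus gave the 2 genes nearly 1 value. The second pair, DDIT4 with DDIT4-AS1, shared 526 bases at the end of DDIT4, an inhibitor of mTORC1 induced by stress. Its folds in the authors' deposited tables were 10.8 and 10.8 in the shNC list and 11.9 and 11.7 in the shALKBH5 list.

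Other strong pairs joined genes of unlike function. LRFN4, a synaptic adhesion molecule, lies within the span of PC, the pyruvate carboxylase of gluconeogenesis and anaplerosis, and they shared 408 bases in both lists. PC and LRFN4 were also the pair of these 10 with the folds farthest apart: in the authors' deposited tables LRFN4 had 15.2 and PC 18.7 in the shNC list, while LRFN4 had 25 and PC 17.7 in the shALKBH5 list. PDIA6, a protein disulfide isomerase of the endoplasmic reticulum, shared 341 bases in each list with ATP6V1C2, a proton pump subunit, with folds of 3.25 and 3.22 in the authors' deposited shNC table and 3.46 and 3.49 in the shALKBH5 one. Also among the 10 were SH3BP5-AS1/SH3BP5, PCBP1/PCBP1-AS1, SRRD/TFIP11, PRR29/ICAM2 and ADCY7/BRD7. BRD7, a bromodomain subunit of a SWI/SNF complex, and the adenylate cyclase gene ADCY7 shared 529 and 580 bases, over 90% of the union in both lists (96.2% and 93.7%).

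The longest overlaps of named genes fell on long gene ends and on antisense RNAs. BMP2K, a protein kinase induced by bone morphogenetic protein, and PAQR3, a Golgi membrane protein, shared 1375 bases in the shNC list and 1354 in that of shALKBH5, with folds of 18.5 and 18.7 in the authors' deposited shNC table and 15.0 and 16.0 in the shALKBH5 one. JPX and FTX, long noncoding RNAs of the X chromosome, shared 1218 and 1140 bases in their longest pair. JPX/FTX made 5 pairs in the list of shNC and 2 in that of shALKBH5. RNF219, a ubiquitin ligase, and RNF219-AS1 shared 1171 and 1381 bases. LONP2, a peroxisomal protease, and SIAH1, a ubiquitin ligase, shared 1000 bases in each list. Their folds in the authors' deposited tables were 12.1 for LONP2 and 14.1 for SIAH1 in the shNC list and 19.6 and 11.7 in the shALKBH5 list, so the gene with the higher value changed.

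How close the folds of a pair were depended on how much the 2 peaks shared. Over all pairs the median absolute log2 ratio of the folds was 0.19 for shNC and 0.17 for shALKBH5, and 44.8% (41.9 to 47.7) and 46.1% (43.4 to 48.9) of the pairs had folds within 1.1 times of each other. Folds over 2 times apart were found in 14.7% and 17.5% of the pairs, and over 4 times apart in 5.26% and 5.12%. In pairs that shared under 25% of the union the median absolute log2 ratio was 0.74 and 0.90. It was 0.46 and 0.45 from 25 to 50%, 0.22 and 0.18 from 50 to 75%, 0.077 and 0.076 from 75 to 90%, and 0.034 and 0.037 from 90% up. Spearman's rho of the 2 folds, given as a description over pairs of the same libraries, rose from 0.36 and 0.27 under 25% to 0.99 and 0.98 from 90% up, over 219 to 283 pairs each.

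**Figure D3:**
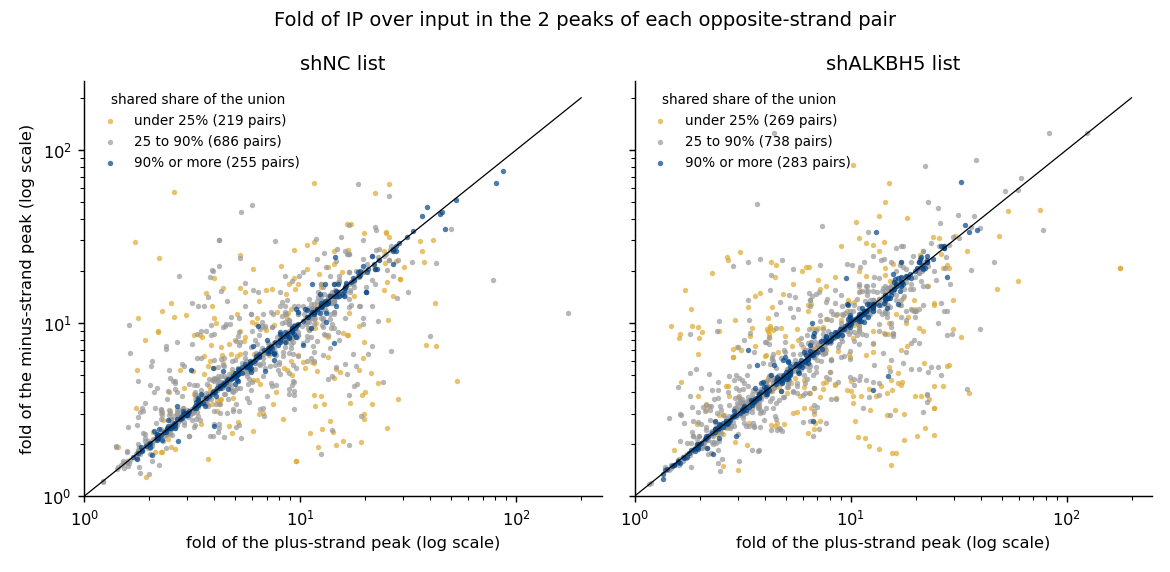
Fold of the plus-strand peak against fold of the minus-strand peak in each pair, both on log scales, 1 point per pair, coloured by the share of the union that the 2 peaks have in common; the line marks equal folds. Pairs sharing 90% or more (255 shNC and 283 shALKBH5 pairs) lie along the line, and pairs sharing under 25% (219 and 269) scatter.

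Pairs with the same borders carried the same numbers. There were 3 of them in the shNC list and 5 in that of shALKBH5, and in all 8 the fold and the log10 p were equal on both strands in the authors' deposited tables. MATN1-AS1/MATN1, for the cartilage protein matrilin-1 and its antisense RNA, had 18.7 on both strands in the authors' deposited shNC table and 6.51 on both in the shALKBH5 one. KAZN, for the junction protein kazrin, and TMEM51-AS1 had 12 on both strands in the authors' deposited shNC table and 3.75 on both in the shALKBH5 one. NUDT4/UBE2N made the third such shNC pair, while FAM149B1/DNAJC9, HIST1H2BE/AL353759.1 and AC004943.2/ZFHX3 made up the shALKBH5 ones. Equal folds were listed for 98 shNC and 109 shALKBH5 pairs in all, and equal log10 p for 101 and 129.

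Other sets of peaks measured the same way show the range. Peaks that overlap on the same strand but carry 2 gene names, 712 pairs in the list of shNC and 756 in that of shALKBH5, had folds within 1.1 times of each other in 61.2% (57.5 to 64.8) and 56.5% (52.9 to 60.1). Neighbouring peaks of 1 gene, which share no base, did so in 7.44% (6.95 to 7.95) and 7.21% (6.76 to 7.68). Opposite-strand peaks under 1000 bases apart without a shared base did so in 6.56% (5.18 to 8.18) of 1112 and 7.21% (5.84 to 8.79) of 1248. The opposite-strand pairs sharing 90% or more reached 80.0% (74.6 to 84.7) and 84.1% (79.3 to 88.2), and those under 25% reached 9.13% (5.67 to 13.8) and 13.8% (9.87 to 18.5). For pairs under 25%, the shNC interval holds the shares of peaks that share no base and the shALKBH5 interval lies above them. Pairs are not independent, since 1 peak can stand in several, and these intervals are too narrow to that extent.

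**Figure D4:**
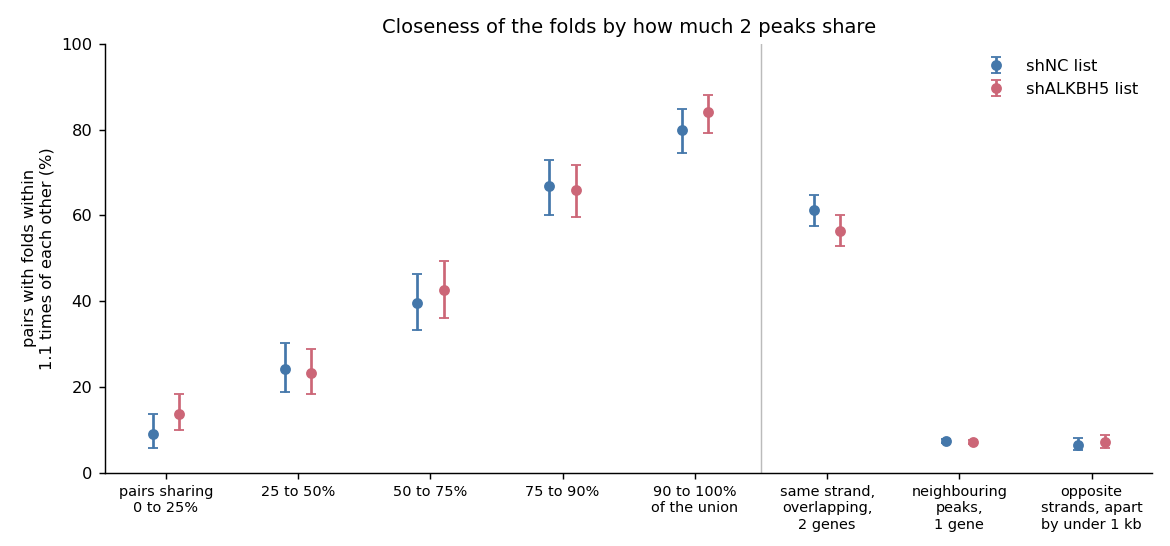
Percent of pairs whose folds lie within 1.1 times of each other, with 95% exact intervals over pairs, for opposite-strand pairs by the share of the union in common and, right of the line, for 3 other sets of peak pairs. The share climbs from 9.13% and 13.8% to 80.0% and 84.1% and stays near 7% for peaks that share no base.

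In some of the pairs with the most unequal folds, a long and a short peak met. DSE, an epimerase that makes dermatan sulfate, had a fold of 174 in the authors' deposited shNC table beside 11.4 for TSPYL1, a nucleosome assembly protein family member that lies within it, although 358 of the 361 bases of the DSE peak were shared. In the authors' deposited shALKBH5 table the same 2 genes, again with 358 shared bases, had 10.7 and 13.7. GEMIN7, a component of the SMN complex, had 19.1 beside 2.05 for its antisense RNA GEMIN7-AS1 in the authors' deposited shNC table, and GEMIN7-AS1 had no peak in the shALKBH5 list. MTFR1 and PDE7A, a cyclic AMP phosphodiesterase, met over 56 bases, with 2.23 and 23.8 in the authors' deposited shNC table. Others had unequal folds in both lists, and peaks of unlike length are among them too. FAAP20, a Fanconi anaemia core complex protein, had 43.7 beside 5.34 for PRKCZ, an atypical protein kinase C, in the authors' deposited shNC table, and 36.5 beside 7.36 in the shALKBH5 one, with 506 and 566 shared bases. UCKL1-AS1 had 16.9 beside 1.97 for the uridine kinase gene UCKL1 in the authors' deposited shNC table, and 26.2 beside 5.01 in the shALKBH5 one.

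The named pairs with the most unequal folds in the shALKBH5 list shared 5 to 221 bases. The 58 bases that MCF2L, a guanine nucleotide exchange factor, shared with MCF2L-AS1 had 16.3 and 1.78 in the authors' deposited shALKBH5 table. GRIN1, an NMDA receptor subunit, and LRRC26, a potassium channel subunit, met over 5 bases, with folds of 15.4 and 1.52 in the authors' deposited shALKBH5 table. PANO1 and PIDD1, a p53-induced death domain protein, met over 12 bases, with 35.3 and 3.94 in the authors' deposited shALKBH5 table. TMEM79, a skin barrier protein, and GLMP, a lysosomal protein, met over 18 bases, with 20.4 and 2.21 in the authors' deposited shALKBH5 table. ST20-AS1 against ST20 was the widest of these named pairs, 24.4 against 2.25 in the authors' deposited shALKBH5 table over 221 shared bases. In the authors' deposited shNC table ST20-AS1 and ST20 had 2.70 and 2.97. The ST20-AS1 peak there, chr15:79923430-79923609, had other borders than the one in the shALKBH5 list.

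Which gene of a pair had the higher fold often carried over between the lists. Between the lists, 957 pairs could be matched by their 2 genes and by common shared bases. Of 250 matched pairs whose shNC folds were over 1.5 times apart, the same gene was higher in the shALKBH5 list in 179, 71.6% (65.6 to 77.1). The share was 74.8% (66.6 to 81.9) of 135 pairs over 2 times apart and 77.3% (62.2 to 88.5) of 44 pairs over 4 times apart. Spearman's rho of the log2 ratio between the lists was 0.39 over the 957 pairs, a description across pairs that share all 4 libraries and often their lengths. FAAP20 and UCKL1-AS1 were among the pairs that kept their order, and DSE/TSPYL1 was among those that did not.

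**Figure D5:**
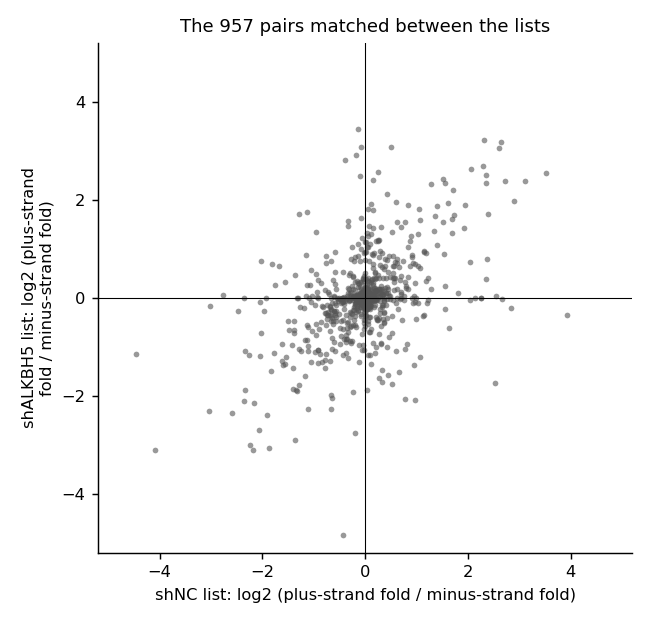
Log2 ratio of the plus-strand to the minus-strand fold in the shNC list (horizontal) and the shALKBH5 list (vertical), 1 point for each of the 957 matched pairs. Most points crowd near 0 on both axes, and of the 44 pairs over 4 times apart in the shNC list 34 lie on the same side of 0 in both.

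Most gene pairs were found in both lists. The pairs came from 916 gene pairs for shNC and 1029 for shALKBH5, and 802 were common, 87.6% (85.2 to 89.6) of the shNC and 77.9% (75.3 to 80.4) of the shALKBH5 gene pairs. The 114 shNC and 227 shALKBH5 gene pairs of 1 list alone rested on weaker peaks, with a median log10 p of -5.39 and -5.64 in the authors' deposited tables beside -22.8 and -23.4 for the common ones. In 37 and 77 of them both genes had a peak in the other list, in 65 and 115 only 1 gene did, and in 12 and 35 neither did. Layout went with this in the shALKBH5 list: 36.1% (26.6 to 46.5) of the 97 placed pairs of that list alone were head to head, beside 12.9% (9.76 to 16.5) of the 404 placed pairs common to both lists. For the shNC list alone the share was 20% (9.58 to 34.6) of 45, beside 11.4% (8.41 to 15.0) of 386. The intervals of the 2 lists overlap, and the difference between the lists was not tested.

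Single peaks showed this too. A peak has a partner when any of its bases lies under a peak of the other list, on either strand. An overlapping peak can meet peaks of the genes of both strands there, so this rule favours finding it a partner. No partner was found for 177 of 2178 overlapping shNC peaks, 8.13% (7.01 to 9.35), beside 12.6% of all shNC peaks, and for 351 of 2429 overlapping shALKBH5 peaks, 14.5% (13.1 to 15.9), beside 19.8% of all shALKBH5 peaks. With only the 22448 shALKBH5 peaks of smallest p kept, as many as the shNC list has, these shares became 9.92% (8.69 to 11.3) and 11.4% (10.1 to 12.8). Over all peaks the share was then 15.1% in each list. In the full lists, 11.1% of overlapping shNC peaks and 18.1% of overlapping shALKBH5 peaks had no partner on their own strand. The own-strand share over all peaks was not measured. Of the placed overlapping peaks without a partner, 85 of 236 lay at the gene start in the shALKBH5 list, 36.0% (29.9 to 42.5), and 25 of 114 did in the shNC list, 21.9% (14.7 to 30.6). With a partner the shares at the start were 17.5% (15.6 to 19.6) and 15.6% (13.7 to 17.7). At equal length the first pair of shares was 37.9% of 174 and 22.9% of 140. Over all placed peaks, 14.5% lay at the start in the shALKBH5 list and 11.4% in the shNC list. The start share of all peaks without a partner was not measured. The higher start shares are therefore not shown to be particular to overlapping peaks. Both peaks lacked a partner in 25 of 87 head-to-head pairs of the shALKBH5 list, 28.7% (19.5 to 39.4), against 36 of 329 tail-to-tail pairs, 10.9% (7.78 to 14.8), and 171 of all 1290 pairs, 13.3% (11.5 to 15.2). Pairs with one gene inside the other lay between, 16 of 85, 18.8% (11.2 to 28.8), and their interval overlaps both. In the shNC list it was 7 of 53, 13.2% (5.48 to 25.3), against 22 of 307, 7.17% (4.55 to 10.6), beside 86 of all 1160 pairs, 7.41% (5.97 to 9.08), and the intervals of the layouts overlap.

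The pairs named next were chosen for high folds among those without a partner. Over all gene pairs of 1 list alone the median fold was 5.17 beside 6.63 for the common ones in the authors' deposited shNC table, and 6.33 beside 6.62 in the shALKBH5 one. MIS12, which anchors the kinetochore, and DERL2, which works in degradation from the endoplasmic reticulum, share a start region, and their peaks in the shALKBH5 list shared 133 bases at chr17:5486421-5486553. The folds in the authors' deposited shALKBH5 table were 20.8 and 19.9, with log10 p of -5.36 and -5.10. A stronger head-to-head pair of the shALKBH5 list alone was DARS-AS1/DARS: the aspartyl-tRNA synthetase gene DARS had 5.54 and DARS-AS1 23.5 in the authors' deposited shALKBH5 table, with log10 p of -24.4 and -22.5. GPN1, a small GTPase, and CCDC121 made the matching case of the shNC list, 16.9 and 19.6 in the authors' deposited shNC table with log10 p of -4.26 and -5.03. Away from gene starts, COQ6, an enzyme of coenzyme Q synthesis, and ENTPD5, a nucleotidase of the endoplasmic reticulum, shared 210 of 211 bases at a fold of 17.2 on both strands in the authors' deposited shNC table, with no partner in the other list. The other pairs so chosen in the shNC list were TM9SF2/LINC01232, S100PBP/YARS and PRPF40B/FAM186B. Their folds were 13.4 to 22.3 in the authors' deposited shNC table, with log10 p of -3.25 to -5.81. In the shALKBH5 list alone, GSKIP/ATG2B and MORC2-AS1/MORC2 both had 22.6 on each strand, with log10 p of -5.89, per the authors' deposited shALKBH5 table. PYCARD-AS1/PYCARD had 21.7 on each strand there, with log10 p of -5.62. These are weak beside the median of -17.1 for overlapping shALKBH5 peaks. Such values recur at unrelated places: CASC2 also had 21.7 with -5.62, and GPN1, LINC01232 and YARS all had 16.9 with -4.26 in the shNC list. The same fold and log10 p can thus be listed for 2 peaks that are not a pair. The opposite-strand peaks paired with CASC2, GPN1, LINC01232 and YARS had other folds. PYCARD is the adaptor of inflammasomes and ATG2B a lipid transfer protein of autophagy.

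Genes with an overlapping peak were also compared for standing in 1 list alone. Of all genes, 6.22% of those in the shNC list had no peak in the shALKBH5 list and 12.2% the other way round. Among genes with an overlapping peak it was 86 of 1724, 4.99% (4.01 to 6.12), and 182 of 1943, 9.37% (8.11 to 10.8). Those genes had 86 and 188 overlapping peaks, and 34 and 43 of these shared bases with a peak that the other list gave to another gene. At those places both lists had a peak, under different gene names.

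The gene lists chosen for the pathway show how far the overlaps reach into it. Of 24 genes of the m6A machinery 22 had a peak in each list, and 2 of them, ALKBH5 and WTAP, had an overlapping one. That is 9.09% of the genes with a peak, beside 15.2% and 16.1% of all genes. The knocked-down gene's own start peak was such a peak. It shared 177 bases in the shNC list and 162 in that of shALKBH5 with AC087164.1, an unnamed locus of the minus strand, at chr17:18183257-18184587 and chr17:18183257-18184558. ALKBH5 had a fold of 5.98 with log10 p of -599 in the authors' deposited shNC table and 5.71 with -237 in the shALKBH5 one. AC087164.1 had 9.05 with -102 in the authors' deposited shNC table and 5.68 with -27.8 in the shALKBH5 one. A fold of IP over input in a peak is not a level of ALKBH5 RNA, and the knockdown cannot be checked from these values.

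WTAP, the adaptor that holds the methyltransferase complex together, lies inside the span that RefSeq gives SOD2, the mitochondrial superoxide dismutase, and 114 bases were listed for both in each list. WTAP had 13.0 in the authors' deposited shNC table and 10.5 in the shALKBH5 one, and SOD2 had 8.56 and 2.71. Their shared part was only 11.4% and 12.6% of the union, which is the range in which folds of a pair were often unequal.

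Of the list on double-stranded RNA sensing and editing, 1 of 18 genes with a peak had an overlapping one in the shNC list (DGCR8). In the shALKBH5 list it was 3 of 20 (DGCR8, EIF2AK2 and TARBP2). The shares were 5.56% and 15%, beside 15.2% and 16.1% of all genes with a peak. DGCR8, the RNA-binding partner of DROSHA in microRNA processing, shared 241 and 196 bases with AC006547.2, at 9.07 and 8.07 in the authors' deposited shNC table and 4.43 and 4.67 in the shALKBH5 one. EIF2AK2 encodes PKR, a kinase that binds double-stranded RNA. Its peak had 2.39 beside 4.83 for AC007899.1 in the authors' deposited shALKBH5 table and no partner in the shNC list. TARBP2, the partner of DICER1, met AC023509.4 over 16 bases.

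Of the genes for 3' end formation, 3 had an overlapping peak in each list, of 16 and 15 with a peak: CSTF3, PCF11 and WDR33. Their shares of 18.8% and 20% were near the 15.2% and 16.1% of all genes with a peak. WDR33, which reads the polyadenylation signal, surrounds the single-exon gene SFT2D3, and they shared 748 and 778 bases at near-equal folds, 16.1 on both strands in the authors' deposited shNC table and 22.6 for SFT2D3 beside 23.1 for WDR33 in the shALKBH5 one. PCF11, a cleavage factor, shared 175 bases with AP000873.2 in each list. CSTF3, the scaffold of the cleavage stimulation factor, shared 111 and 114 bases with LINC00294.

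Among the plasma cell and myeloma genes, DIS3 alone had an overlapping peak, of 23 genes with a peak in the list of shNC and 25 in that of shALKBH5. This is 4.35% and 4%, beside 15.2% and 16.1% of all genes with a peak. DIS3, a catalytic subunit of the RNA exosome that is often mutated in myeloma, ends against BORA, an activator of Aurora kinase, and they shared 240 bases in both lists. BORA had 4.81 and DIS3 4.06 in the authors' deposited shNC table, and 4.45 and 4.39 in the shALKBH5 one.

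Of 38 genes known to overlap on opposite strands, 19 had a peak for shNC and 22 for shALKBH5, and 6 and 9 of these had an overlapping one. The shares were 31.6% and 40.9%, beside 15.2% and 16.1% of all genes with a peak, for genes picked because they overlap. FGF2, a growth factor, and NUDT6, long known as its antisense gene, shared 387 and 561 bases with folds of 13.8 and 14.4 in the authors' deposited shNC table and 28.7 and 28.3 in the shALKBH5 one. MSH6, a mismatch repair protein, and the F-box gene FBXO11 shared 449 and 450 bases, with 11.6 and 11.5 in the authors' deposited shNC table and 7.81 and 7.80 in the shALKBH5 one. CD3EAP, an RNA polymerase I subunit, and ERCC1, a nucleotide excision repair protein, overlapped in 2 places in each list, and the longer one shared 1192 bases in both. CDKN2A, which encodes cell cycle inhibitors, and CDKN2B-AS1 shared 210 bases head to head in the shALKBH5 list alone, at 4.30 and 3.34 in the authors' deposited shALKBH5 table. PLAU, the urokinase plasminogen activator, and C10orf55 shared 65 bases in the shALKBH5 list alone, at 48.9 and 31.7 in the authors' deposited shALKBH5 table, and neither peak had a partner in the shNC list.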

How the data were processed

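Per the labels' protocols, poly(A) RNA of RPMI-8226 cells gave 1 input and 1 anti-m6A library for each of shNC and shALKBH5. HOMER 4.9.1, BWA 0.7.12, fastp 0.19.11 and hg38 stand, without roles, in the list given per the submitters' processing notes. The sources used here give neither the peak caller nor its settings nor strandedness. For each condition the authors deposited 1 list of peaks. Per the file headers, each peak has blocks, a strand, a gene, a fold (the ratio of IP to input as deposited by the authors) and a log10 p, read as a score. Folds were compared within a list only. The log10 p of 1 overlapping shALKBH5 peak was a spreadsheet error and was left out of p differences. No read counts are in these tables, so depth is unknown.

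Pairs were found from blocks with networkx 3.6.1, SciPy 1.17.1, numpy 2.4.6 and pandas 2.3.3 under Python 3.11.15, in code tested on simulated data, and plotted with matplotlib 3.10.9. Starts count from 1. Gene class came from RefSeq (GRCh38.p14) by symbol, within 50 kb of the gene's peaks, and position only where the span reached the peak. This matched 1639 of 2178 and 1820 of 2429 overlapping peaks. Pairs named in the text are the 10 strongest of both lists, per list the 5 highest in lower fold among pairs without partners, the 5 with most shared bases and the 5 with folds farthest apart (pseudogenes, unnamed loci and immunoglobulin genes left out), all pairs of the gene lists and examples of groups of 4 or more peaks. Of the strongest pairs, 1 is not reported here. The sequence sites, same-border pairs, extremes of shared bases and head-to-head examples were chosen after their values were seen. Members and lists were chosen with earlier results of these data known. Alternatives were other overlap limits, whole spans, a stricter fold, equal list lengths, named genes only, other partner rules and GGAC followed by any base.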

Additional observations from a re-analysis of the deposited data

How the results depend on the processing

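Of 66 alternative values, 39 stayed within the counting interval of the value reported or, for counts, within 1.5 times of it. The shNC counts of overlapping peaks and pairs at equal list length are among these and could not move, since only the shALKBH5 list was shortened. Without pseudogenes, unnamed loci and immunoglobulin genes, the overlapping peaks fell to 1098 (shNC) and 1205 (shALKBH5), the pairs to 569 and 629, and the median absolute log2 ratio to 0.15 and 0.13. Pairs sharing at least 50% of the shorter peak had medians of 0.15 and 0.14, with log10 p differing by 1.40 and 1.48, and pairs with the same borders had 0 for both measures in both lists. Gene ends within 1000 bases gave tail-to-tail shares of 59.2% and 53.5%. At equal list length, the gene pairs found in both lists were 85.2% and 81.2%, and peaks without a partner were 9.92% and 11.4%. A partner on the same strand left 11.1% and 18.1% without one, and 50% of both peaks in common left 18.2% and 25.1%. GGAC followed by any base stood on both strands of 52.5% (shNC) and 56.4% (shALKBH5) of windows under overlapping peaks. It did so in 44.9% of all windows, and in 50.89% (shNC) and 55.03% (shALKBH5) of those under any peak. The counting intervals for overlapping peaks hold the share under any peak of their list. GGACT stood on both strands of 15.2% of the shALKBH5 windows under shared bases. Equal length for head-to-head pairs and start peaks was chosen after seeing the data. Which libraries would move these values was not tested, because each list has 1 IP and 1 input library: no library can be left out. No paired analysis was possible because each condition has 1 library of each kind. Precision covers peak counts only, since depth is unknown, and a list with more peaks has more that lack a partner.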
